A study of Mus musculus with 6 samples.

Results

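Kdm7a, Phf2 and Phf8 encode a small family of histone demethylases, and Kdm7a, older Jhdm1d, is the gene of the KIAA1718 protein that the short hairpin RNA (shRNA) in this experiment was aimed at. These 3 of the 18193 genes named on the array were taken by their symbols, with all their probe sets, 12 of the 45037 that are not array controls: 5 for Kdm7a, 4 for Phf2 and 3 for Phf8. RNA came from R1 mouse embryonic stem cells, an established line, and was hybridised to one-colour arrays with Affymetrix probe sets. The 3 control arrays hold cells carrying a lentivirus with the Luc shRNA, read here as one against luciferase, which mouse cells do not have, and the other 3 arrays hold cells with a lentivirus carrying KIAA1718 shRNA1. All 6 came from GFP-sorted cells. A single hairpin stands for the knockdown, so effects of its sequence on other transcripts cannot be told apart from effects of lowering KIAA1718. The labels do not say that replicates came from separate infections, so the spread behind each p-value may be no more than technical.

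These proteins share a PHD finger, which binds histone H3 trimethylated at lysine 4 at active promoters, followed by a JmjC domain, the iron-dependent fold that removes methyl groups from lysine. KDM7A acts on the repressive dimethyl marks H3K9me2 and H3K27me2. PHF8 removes H3K9me2, H3K9me1 and H4K20me1, and mutations of its X-linked gene cause intellectual disability with cleft lip or palate. PHF2 departs from the metal-binding residues usual in the JmjC fold and is known to act on H3K9me2 together with its partner ARID5B. In embryonic stem cells KDM7A is known for a role in the switch to neural differentiation, in work that named Fgf4 as its target.

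The start regions of the 3 genes are shown because they are a property of the genes that was not used to choose them. The sequences are the bases before the first base of each gene in RefSeq (GRCm38.p6), 5′ to 3′ on the gene's own strand, with every CpG dinucleotide in capitals. The Kdm7a stretch lies at chr6:39206774-39207023 on the minus strand, that of Phf2 at chr13:48870886-48871135 on the minus strand, and that of Phf8 at chrX:151520422-151520640 on the plus strand.
Kdm7a: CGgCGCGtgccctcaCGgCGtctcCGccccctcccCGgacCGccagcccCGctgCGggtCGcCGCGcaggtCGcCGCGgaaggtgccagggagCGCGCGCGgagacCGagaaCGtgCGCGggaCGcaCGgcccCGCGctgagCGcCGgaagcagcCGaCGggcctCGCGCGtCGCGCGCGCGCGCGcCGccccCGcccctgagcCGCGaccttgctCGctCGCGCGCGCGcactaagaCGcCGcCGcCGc
Phf2: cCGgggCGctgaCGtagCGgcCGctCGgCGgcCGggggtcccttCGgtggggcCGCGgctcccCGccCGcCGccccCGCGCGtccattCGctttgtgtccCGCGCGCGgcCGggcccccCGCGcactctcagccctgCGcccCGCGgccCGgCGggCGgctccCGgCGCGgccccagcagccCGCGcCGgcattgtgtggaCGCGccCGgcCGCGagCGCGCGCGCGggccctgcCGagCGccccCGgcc
Phf8: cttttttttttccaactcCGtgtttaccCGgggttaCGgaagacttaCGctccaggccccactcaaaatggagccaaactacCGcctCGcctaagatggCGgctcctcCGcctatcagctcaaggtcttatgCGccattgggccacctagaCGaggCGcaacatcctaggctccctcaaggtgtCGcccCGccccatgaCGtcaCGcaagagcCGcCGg

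In the full windows of 300 bases, Kdm7a had 65 CpGs and Phf2 had 63, against a median of 13 over 21263 windows of protein-coding genes. Of the 300 bases, 250 lay before the gene for Kdm7a and Phf2 and 219 for Phf8, with the rest inside it. As many or more were found in 2 other windows for Kdm7a and in 8 for Phf2. Phf8 had 26, more than 77.4% of windows. The window of Phf8 also held the letters AAGATGGC, the core of the motif bound by the factor YY1, at 2 places on either strand, and 3.05% of all windows held it at least at 1 place, while those of Kdm7a and Phf2 had 0. Only 1 of the 2 Phf8 matches lies in the printed bases. A match of letters is a description of the window and not a binding site.

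Of these 12 probe sets, 6 gave enough signal to test and none of those 6 passed the threshold, a Benjamini-Hochberg adjusted p of 0.05 over 27022 probe sets in limma. Over the whole array, 3.68% of tested probe sets passed. None of the 6 passed at an unadjusted p under 0.05 either, against 18.8% of all tested probe sets. All 6 differences lay below 0, with a median of -0.21 on the log2(signal + 16) scale, where 49.5% of all tested probe sets lay below 0 and their median was 0.00256. Groups did not overlap for 2 of the 6, against 24.3% of all tested probe sets. With deposited signals that had not been normalized, 1 Phf2 probe set lay at 0.02 and all 6 were below the median of all probe sets, which was then 0.10.

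Kdm7a, the target, had its brightest probe set in 1456150_at. Its normalized signal was 38.5, 37.0 and 39.2 on luciferase replicates 1, 2 and 3 and 42.2, 23.0 and 30.2 on KIAA1718 shRNA1 replicates 1, 2 and 3. After normalization the control arrays lay close together, whereas the shRNA arrays spanned a range that reached above the highest control. In the deposited signals the controls were apart too, at 33.3, 31.2 and 44.9, and the shRNA arrays, at 40.9, 23.8 and 34.9, stayed below the highest control. The means were 38.2 ± 1.12 and 31.8 ± 9.69 (SD, n = 3), a log2 difference of -0.20 ± 0.15 (SE) with a 95% interval of -0.54 to 0.13 (adjusted p = 0.533). Replicate 1 of KIAA1718 shRNA1 decides much of this value. The difference was -0.35 without that replicate (95% interval -0.68 to -0.03, adjusted p = 0.248). It was -0.06 without KIAA1718 shRNA1 replicate 2.

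The next Kdm7a probe set, 1435867_at, read 35.6, 38.8 and 29.96 in controls and 28.4, 26.1 and 34.3 with the shRNA. Here KIAA1718 shRNA1 replicate 3 was above the lowest control, so the groups overlapped again, and the array that was highest with the shRNA was not the one that was highest by 1456150_at. The difference was -0.16 ± 0.13 (SE; 95% interval -0.45 to 0.14, adjusted p = 0.585). The dimmest tested one, 1427359_at, read 18.4, 11.9 and 10.7 in controls and 10.3, 7.24 and 10.7 with the shRNA. Its groups were separate only by the gap between luciferase replicate 3 and KIAA1718 shRNA1 replicate 3, at 10.74 and 10.70, and its difference was -0.22 ± 0.14 (SE; 95% interval -0.53 to 0.10, adjusted p = 0.462).

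The intervals limit how much Kdm7a signal could have been lost. If all signal of a probe set came from Kdm7a, the lower ends correspond to a loss of 44.1% by 1456150_at and 39.0% by 1435867_at, and the point estimates to 18.5% and 14.9%. For these 2 probe sets a halved signal would give -0.63 and -0.60, both outside the intervals. The median signal of sensory receptor and hair protein genes, 2.03, was then taken as background that the shRNA cannot lower. This moved the values to -0.59 and -0.56, still outside. A higher background, such as the 90th percentile of those genes, 5.51, brings both nearer to the intervals. At that background the halved value of 1456150_at comes inside its interval, and that of 1435867_at stays outside. For 1456150_at the reading thus depends on the background taken. Halving came inside the interval in 2 of 15 alternatives for 1456150_at (without KIAA1718 shRNA1 replicate 1, and with the fibroblast marker level as a covariate) and in 0 of 15 for 1435867_at. For 1427359_at halving, at -0.38, lay inside, and a loss of 67.0% was within its interval.

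**Figure D1:**
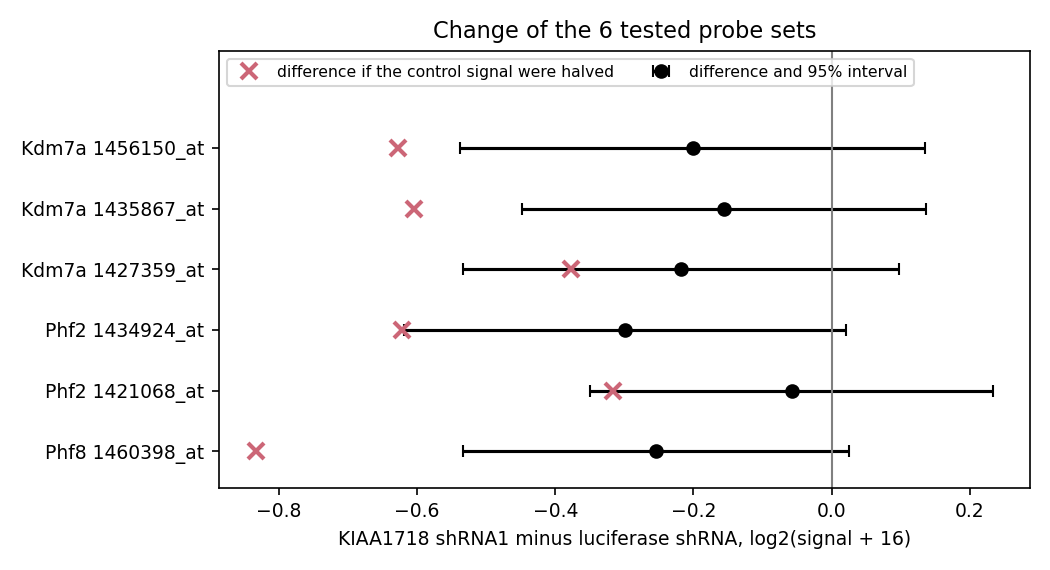
Difference between KIAA1718 shRNA1 and luciferase shRNA arrays (3 each) for the 6 tested probe sets, on the log2(signal + 16) scale; points are the limma estimates, bars the 95% intervals, and crosses the difference that halving the mean control signal would give. Every interval includes 0, and the cross lies outside the interval for 1456150_at, 1435867_at, 1460398_at and, narrowly, 1434924_at.

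Phf2 had 2 tested probe sets. The brighter, 1434924_at, read 33.4, 47.7 and 31.2 in controls and 29.4, 23.9 and 28.2 with the shRNA. All 3 shRNA arrays were below all 3 controls, by a small gap at luciferase replicate 3, and luciferase replicate 2 stood well above the other controls. This was the lowest value among the 6, at -0.30 ± 0.15 (SE; 95% interval -0.62 to 0.02, adjusted p = 0.299), and it was -0.17 (adjusted p = 0.619) without luciferase replicate 2. Without luciferase replicate 3 it was -0.38 (95% interval -0.74 to -0.02, adjusted p = 0.310). Without luciferase replicate 1 it was -0.35 (adjusted p = 0.291). In the deposited signals the groups overlapped, with means of 34.9 ± 5.88 and 28.6 ± 3.95 (SD, n = 3). A halved Phf2 signal would give -0.62, just outside the interval, and it came inside in 9 of 15 alternatives.

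The second Phf2 probe set, 1421068_at, gave no more than a dim signal, 11.5, 9.53 and 10.1 in controls and 6.69, 11.3 and 10.2 with the shRNA. Only KIAA1718 shRNA1 replicate 1 was below the controls. The difference was -0.06 ± 0.13 (SE; 95% interval -0.35 to 0.23, adjusted p = 0.863), and it turned to 0.02 without that replicate and with deposited signals. The pair of probe sets thus gave -0.30 and -0.06 for the same gene, with intervals that overlap.

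Phf8 was tested through 1460398_at alone. It read 98.2, 122 and 123 in controls and 86.5, 90.1 and 103 with the shRNA, so that KIAA1718 shRNA1 replicate 3 alone reached above luciferase replicate 1. The means were 114 ± 14.0 and 93.1 ± 8.51 (SD, n = 3) and the difference -0.25 ± 0.13 (SE; 95% interval -0.53 to 0.03, adjusted p = 0.312). The lower end corresponds to a loss of 35.2% of the signal. Halving it would give -0.83, outside the interval here, and inside it in 0 of 15 alternatives.

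The other 6 probe sets were too dim for the test, with deposited signals from 0.225 to 9.29, and 3 of them were lower with the shRNA and 3 higher. Fitted without the filter, 0 of these 6 passed (limma adjusted p from 0.483 to 0.846, none at an unadjusted p under 0.05). Their level can be read beside 123 probe sets of olfactory and vomeronasal receptors and keratin-associated proteins, genes that embryonic stem cells are not known to use, whose median was 2.03. Those above all 123 were 1456150_at and 1435867_at of Kdm7a, 1434924_at of Phf2 and 1460398_at of Phf8. The other tested ones, 1427359_at and 1421068_at, exceeded 99.2% and 98.4%, and the untested ones between 28.5% and 82.9%. Probes differ in how well they bind, so these shares describe signal, not transcript number.

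**Figure D2:**
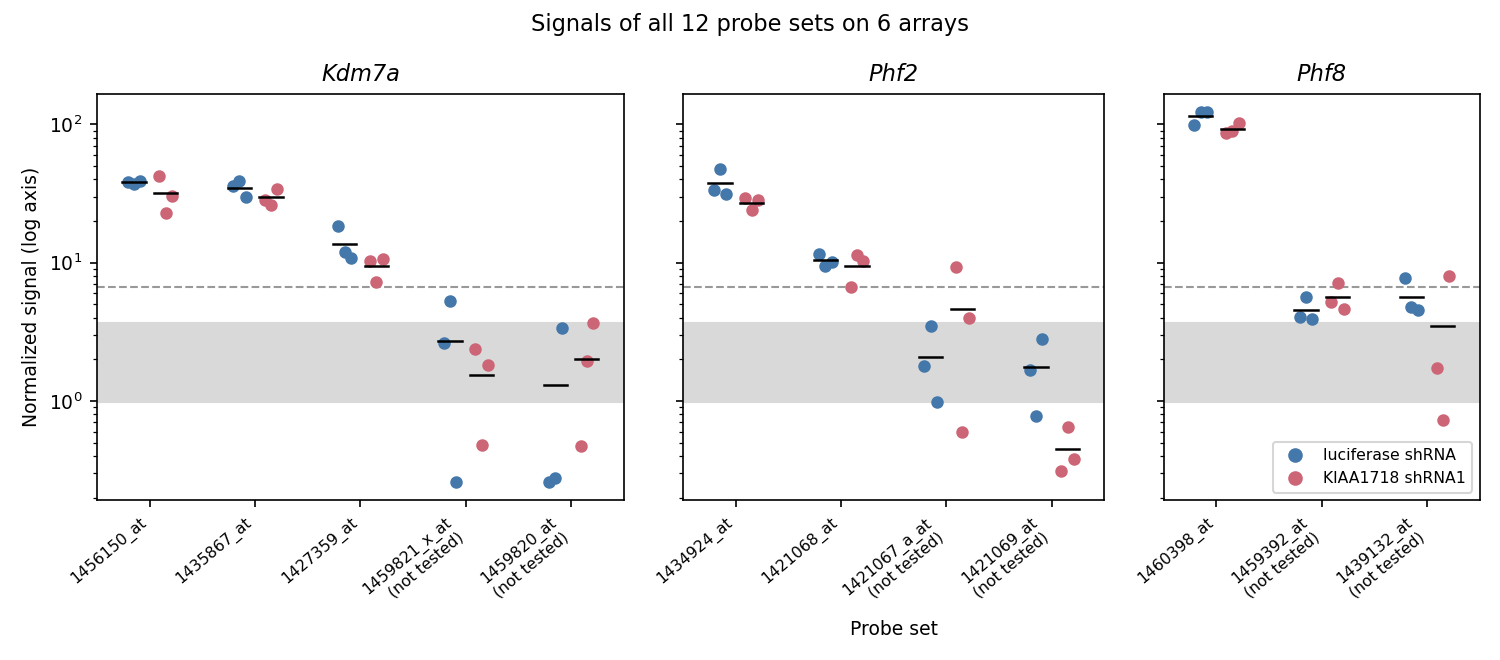
Normalized signal (log axis) of all 12 probe sets on the 6 arrays; points are arrays, horizontal bars group means, the grey band the range between the quartiles of 123 sensory receptor and hair protein probe sets, and the dashed line their 95th percentile (6.61). The 6 tested probe sets lie above the line on every array, and the group means of the 6 untested ones lie below it.

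No difference between the change of the target and those of its relatives was detected. The within-array gap between the brightest Kdm7a and Phf2 probe sets, with an SD of 0.26 over controls and 0.20 with the shRNA (n = 3), was wider with the shRNA by 0.10 on the log2 scale (exact permutation p = 0.7, two-sided). For Kdm7a minus Phf8 the difference was 0.05 (exact p = 0.9), and for Phf2 minus Phf8 it was -0.04 (exact p = 0.9). Adjusted over these 3 pairs every p was 0.9. With 3 arrays against 3 the exact test cannot give a p below 0.1. Leaving out 1 array took the first difference from -0.05 to 0.19 and the second from -0.14 to 0.17. Such a p does not show that the genes changed alike.

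Next to Kdm7a on chromosome 6, the nearest tested gene on 1 side did change. Over all 12734 tested genes 4.84% passed, 2.66% as higher. Parp12, an interferon-inducible ADP-ribosyltransferase gene, rose from a mean deposited signal of 81.7 ± 11.5 to 169 ± 30.4 (SD, n = 3), a log2 difference of 0.79 ± 0.12 (SE, adjusted p = 0.00451). The deposited signals were 77.5, 73.0 and 94.7 in controls and 148, 155 and 204 with the shRNA, with a wide gap between the groups. Parp12 lost its call in 1 of 15 alternatives, with the fibroblast marker level as a covariate, where it was as large, at 0.81 (adjusted p = 0.0524), with a wider interval. Slc37a3, a sugar phosphate exchanger gene on the other side, differed by 0.27 (adjusted p = 0.254). The nearest tested neighbours of Phf2 on chromosome 13, Ptpdc1 at -0.44 (adjusted p = 0.294) and Fam120a at -0.22 (adjusted p = 0.251), did not pass. Nor did those of Phf8 on the X chromosome, Fam120c at -0.13 (adjusted p = 0.629) and the ubiquitin ligase gene Huwe1 at -0.14 (adjusted p = 0.638).

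Fibroblast marker genes varied across the arrays as Phf8 did. Fibroblasts can serve as feeders in stem cell culture. Whether any were present here after the sort for GFP was not tested. On the log2 scale, 19 measured markers of 20 averaged 7.41, 8.08 and 8.04 for luciferase replicates 1, 2 and 3, and 7.29, 7.47 and 7.57 for the same replicates of KIAA1718 shRNA1, a difference of -0.40 (exact p = 0.3). The mean was lower with the shRNA in 3 of 3 pairs of equal number, by an exact sign-flip test over the pairs at p = 0.25, the smallest it can give. Their summed deposited signal ran from 6132 to 11210 in controls and from 6416 to 8799 with the shRNA. All 19 lay above the array median. Over all arrays the lowest mean normalized signal was 14.4, that of Lum, a collagen-binding proteoglycan gene. Only the receptor gene Pdgfra passed, lower by 0.71 (adjusted p = 0.0266). These values do not show which cells the marker RNA came from. If the cultures were mixed, fewer cells of a type and less RNA per cell cannot be told apart.

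Over the 6 arrays, which also differ by group, the Pearson correlation of the marker mean with the brightest probe set was 0.97 for Phf8, 0.64 for Phf2 and 0.16 for Kdm7a. Luciferase replicates 2 and 3 were highest in both Phf8 and the markers, and KIAA1718 shRNA1 replicate 1 was lowest in both. With the marker mean as a covariate the Phf8 difference was -0.07 (95% interval -0.41 to 0.28) in place of -0.25. Under the same fit Phf2 1434924_at was at -0.22 and Kdm7a 1456150_at at -0.28 (95% interval -0.72 to 0.16). Kdm7a 1435867_at was at -0.14 (95% interval -0.54 to 0.25). The dim Kdm7a 1427359_at was at -0.40, with an interval wholly on the lower side (-0.79 to -0.01, limma adjusted p = 0.369). All 12 embryonic stem cell markers lay above the array median. Of these, 4 fell (Klf4, Esrrb, Utf1 and Fgf4, the last known to change when the lists were chosen) and 0 rose, where 2.18% of all genes passed as lower. The mean of all 12 was 10 to 10.08 in controls and 9.61 to 9.77 with the shRNA (exact p = 0.1), without overlap. This stem cell marker mean had a correlation with the brightest probe set of 0.70 for Kdm7a, 0.79 for Phf2 and 0.78 for Phf8. Both marker means were lower with the shRNA, so their part in the lower member values cannot be told apart from that of the shRNA. It was not tested.

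**Figure D3:**
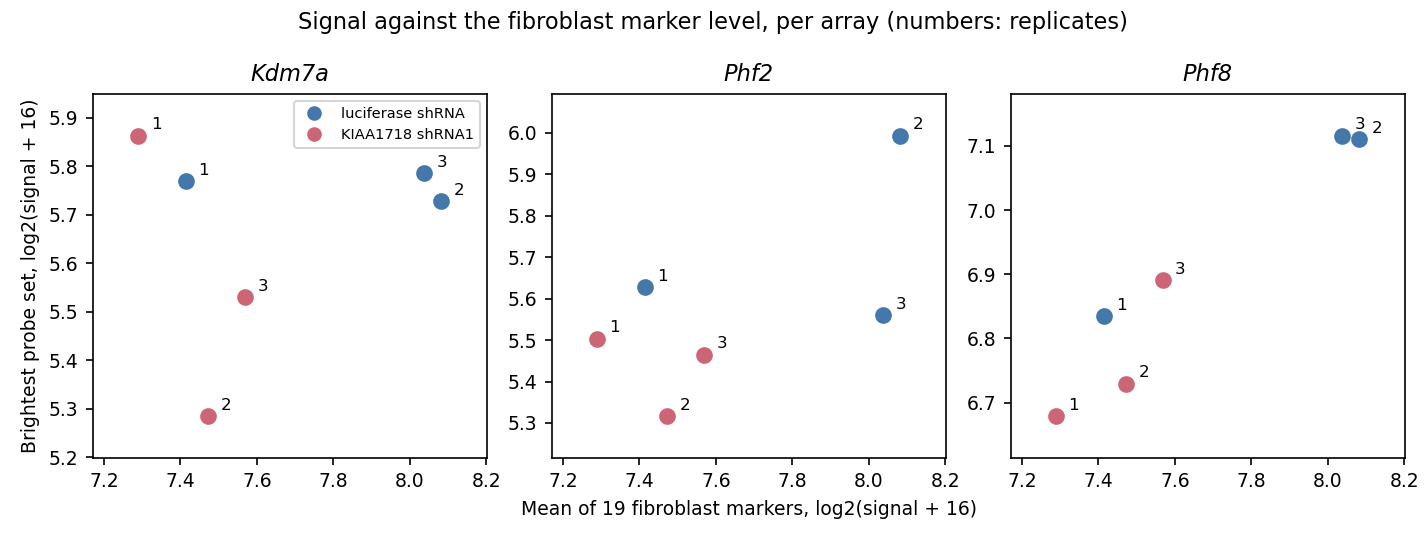
Brightest probe set of each gene against the mean of 19 fibroblast markers on each of the 6 arrays, both as log2(signal + 16); numbers beside the points are replicates and colours the groups. Phf8 follows the marker level across all 6 arrays (correlation 0.97), and Kdm7a does not (0.16).

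The genes whose profile over the 6 arrays was most like that of each member were found by Pearson correlation among 12734 genes. With Kdm7a these were Map1s (0.991), Ik (0.990) and Coq2 (0.988), with Phf2 Sptssa (0.996), Inava (0.994) and Mcf2l (0.992), and with Phf8 Akap2 (0.995), the deubiquitinase gene Usp9x (0.991) and Aebp1 (0.990). With only 6 arrays, 193, 155 and 209 genes had a correlation over 0.9 with Kdm7a, Phf2 and Phf8. Aebp1 alone of these passed, at -0.87 (adjusted p = 0.0436), but 10 of 15 alternatives ended its call. With the fibroblast covariate it was at -0.38. Akap2, at -0.59 (adjusted p = 0.123), passed once arrays were paired by number (adjusted p = 0.0256) and without luciferase replicate 1, at -0.83 (adjusted p = 0.0196), and was at -0.12 with the fibroblast covariate.

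Genes around these enzymes were taken as 5 lists holding 68 tested genes: other demethylases, writers of the same marks, partners with the writers of H3K4 methylation, RNA polymerase I genes and named targets. They were chosen when Fgf4, Ehmt2 and Uty were already known to change in these data, so their counts are no independent evidence. Over all 12734 genes 4.84% passed, 2.66% higher and 2.18% lower. Of the 68, 6 passed, 1 higher and 5 lower, with a median difference of -0.04 against -0.000315 over all genes. Leaving out any 1 array left 3 to 4 past the threshold, and pairing the arrays by number gave 9. The fibroblast covariate left 1, Ehmt2, while the other 5 were nearly as large under it, with wider intervals (Uty 0.93, Fgf4 -0.67, Setd1b -0.47, Rbbp5 -0.42, Wdr5 -0.39).

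Among 14 genes listed as other histone demethylases, only Uty passed. This Y-linked relative of the H3K27 demethylase gene Kdm6a had deposited signals of 23.7, 21.2 and 24.98 in controls and 57.3, 84.2 and 65.6 with the shRNA (log2 difference 0.99 ± 0.15, SE, adjusted p = 0.0045). Every shRNA array was far above the controls. It lost its call in 1 of 15 alternatives, the fibroblast covariate (0.93, adjusted p = 0.0615). The next smallest p belonged to Riox1, a JmjC gene known for other histone marks, at -0.29 (adjusted p = 0.157). The median of the list was -0.03.

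Of 14 genes listed as writers of these marks, which include Eed and Suz12, subunits with no catalytic part of their own, 1 fell. Ehmt2, the H3K9 dimethyltransferase G9a, went from 411, 377 and 470 in controls to 288, 287 and 293 (deposited signals; log2 difference -0.65 ± 0.09, SE, adjusted p = 0.00396), a drop seen on every shRNA array. The call was lost in 1 of 15 alternatives, with deposited signals not normalized. Ezh1, of the H3K27 methyltransferase complex, was at 0.44 (adjusted p = 0.0728, but 0.0499 with arrays paired by number). Its group means were 58.6 ± 8.49 and 93.1 ± 2.87 (SD, n = 3). The median of the list was -0.07.

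The third list held known partners of PHF2 and PHF8 and the writers of H3K4me3, the mark their PHD fingers read. Of 19 genes 3 fell and none rose, and the median was -0.20. With arrays paired by number 5 passed, the others being Zfp711 and E2f1, a cell cycle transcription factor gene at -0.46 (adjusted p = 0.0542, and 0.0455 when paired). The 3 that fell were Setd1b, a methyltransferase gene, at -0.52 (adjusted p = 0.0443), and Rbbp5 and Wdr5, shared subunits of these complexes, at -0.44 (adjusted p = 0.0356) and -0.40 (adjusted p = 0.0306). Normalized groups did not overlap for any of these 3, nor for 27.9% of all tested genes. For genes picked by passing the threshold such a gap is no added evidence. The deposited signals of Wdr5 were 425, 400.9 and 529 in controls and 359, 353 and 401.04 with the shRNA, so that without normalization luciferase replicate 2 lay just under KIAA1718 shRNA1 replicate 3. Each of the 3 lost its call when any 1 array was left out, and the list then had 0 to 1 gene past the threshold. ARID5B's gene Arid5b was at -0.17 (adjusted p = 0.466).

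RNA polymerase I genes, which transcribe ribosomal DNA where PHF2 and PHF8 are known to bind, gave 0 of 17 past the threshold in limma (1 at an unadjusted p under 0.05) and a median of 0.03. The smallest p were those of the factor gene Ubtf at -0.24 (adjusted p = 0.254) and the subunit gene Polr1c at 0.16 (adjusted p = 0.312). Among 5 tested genes named as targets in work on these demethylases, Fgf4, the autocrine growth factor gene of embryonic stem cells, fell by 0.72 ± 0.10 (SE, adjusted p = 0.00335). Its deposited signals were 287, 283 and 394 in controls and 204, 198 and 220 with the shRNA, with all shRNA arrays below the controls. Fgf4 lost its call with deposited signals, at -0.58 (adjusted p = 0.0927), and with the fibroblast covariate, at -0.67 (adjusted p = 0.0659). Zfp711, the gene of a zinc finger partner of PHF8, was at 0.52 (adjusted p = 0.0505, but 0.0444 with arrays paired by number), from a control signal of only 11.7 ± 1.47 to 26.7 ± 2.84 (SD, n = 3), and it passed in 6 of 14 alternatives.

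**Figure D4:**
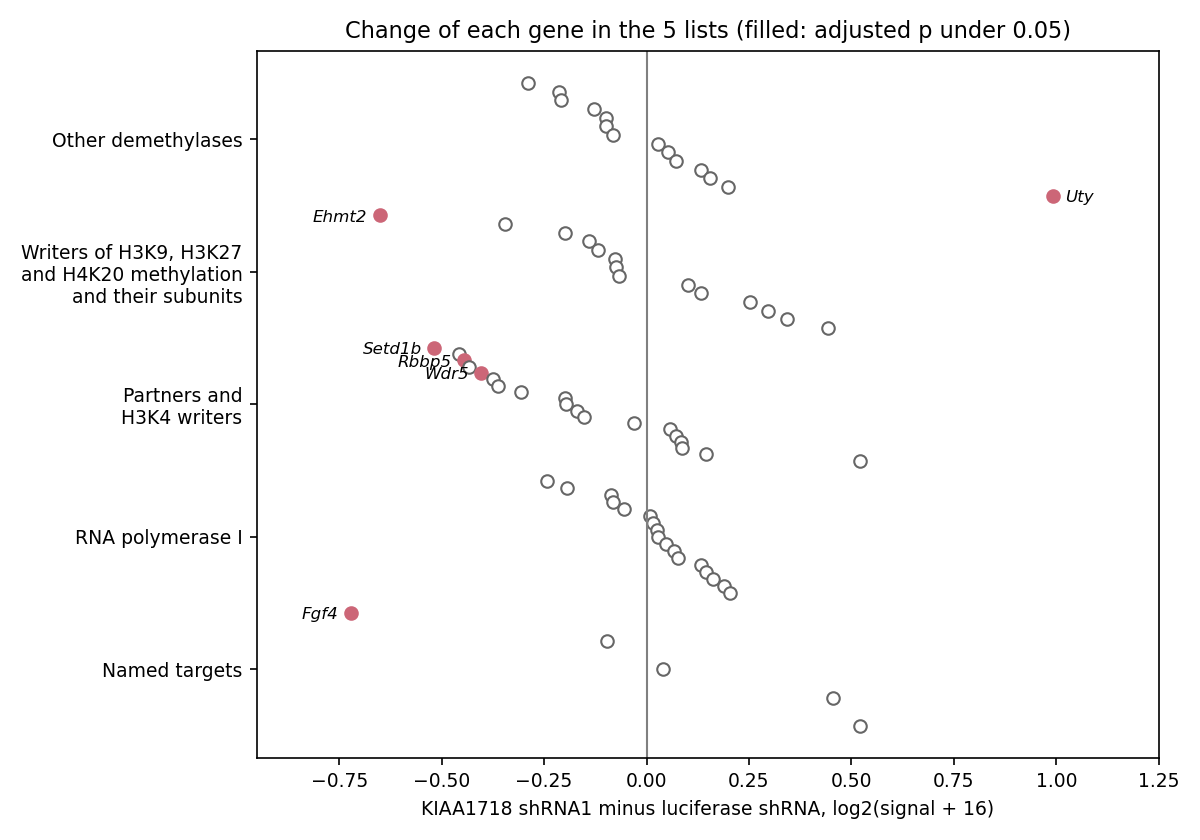
Difference between KIAA1718 shRNA1 and luciferase shRNA arrays on the log2(signal + 16) scale for every tested gene of the 5 lists, sorted within each list; filled points have a limma adjusted p under 0.05. Uty stands to the right, and Ehmt2, Fgf4, Setd1b, Rbbp5 and Wdr5 to the left.

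The 6 member differences kept their sign in most settings, as the plot of all alternatives shows. Kdm7a 1456150_at ran from -0.35 to -0.06, 1435867_at from -0.23 to -0.05 and 1427359_at from -0.48 to -0.08. Phf2 1434924_at ran from -0.43 to -0.15, Phf2 1421068_at from -0.15 to 0.02 and Phf8 1460398_at from -0.35 to -0.07. No member passed the threshold in any alternative that tested it (15, or 14 for 1427359_at and 1421068_at, too dim for the stricter filter), where the smallest adjusted p was 0.203, for Phf8 without luciferase replicate 1.

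**Figure D5:**
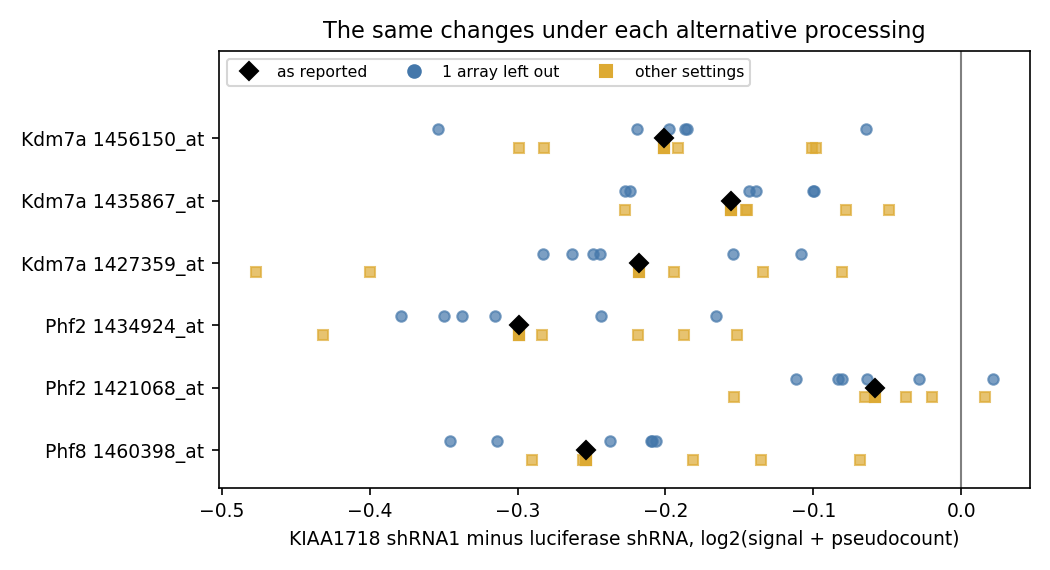
The difference of each tested probe set as reported (black diamonds), with 1 array left out (blue circles) and under the other alternatives (yellow squares), in log2 units of signal plus pseudocount. Values stay below 0 except 2 of Phf2 1421068_at, at 0.02.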

How the data were processed

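RNA of R1 embryonic stem cells was measured on 6 one-colour arrays, 3 with KIAA1718 shRNA1 and 3 with luciferase shRNA; groups and replicate numbers come from sample titles. Values are the signal intensity of each probe set, linear, as deposited by the authors. GCOS is the software given in the submitters' processing notes; the sources used here give neither its settings nor its version. Median signals ran from 9.58 to 13.3 between arrays, so signals were quantile-normalized. The number of arrays limits the precision.

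Members, lists and tests were chosen with earlier results of these data known. Controls (64 AFFX probe sets) and the dimmest 40% by mean over all arrays were left out, and log2(normalized signal + 16), which understates changes of dim genes, was tested across 27022 probe sets by limma 3.58.1 in R 4.3.3 (lmFit, eBayes with trend; two-sided, Benjamini-Hochberg), after a check on simulated data. Symbols were updated by Entrez number with RefSeq; 34945 probe sets had 1 symbol, 932 several and 9160 are unnamed here. The brightest probe set stood for a gene. Genes named are all members, the changed members of each list (4 at most, or the 2 with the smallest p), the nearest neighbours, the 3 most correlated genes for each member and Fgf4; Pdgfra, Lum, Klf4, Esrrb, Utf1, E2f1, Eed, Suz12 and Arid5b were named after their values were seen.

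Array pairs with equal numbers deviated together, with correlations of 0.202, 0.125 and 0.130 against -0.150 to 0.0236 for unequal numbers, each over the limit of 0.1 for pairing. The fits leave the pairing out, and blocked values are given where they change a call. No arrays were duplicates (45036 or more probe sets had unequal signals between any 2). Probe and hairpin sequences were not used here.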

Additional observations from a re-analysis of the deposited data

How the results depend on the processing

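Of the alternatives tried, none brought a member past the threshold. Phf2 1421068_at turned to 0.0163 with deposited signals, and ran from -0.112 to 0.0215 without 1 array. The Kdm7a minus Phf8 difference was -0.00911 at a pseudocount of 1 and the Phf2 minus Phf8 difference 0.0298 at 64; without 1 array the pairs ran from -0.0529 to 0.192 (Kdm7a minus Phf2), -0.145 to 0.173 (Kdm7a minus Phf8) and -0.172 to 0.0440 (Phf2 minus Phf8). Ik, Coq2 and Sptssa turned to 0.0573, 0.0472 and 0.0399 with deposited signals. Coq2 ran from -0.194 to 0.00291 and Huwe1 from -0.245 to 0.0247 without 1 array. Of all tested probe sets 994 passed, and 583 with deposited signals (81.5% of them higher, against 52.8%), 290 with no filter, 625 with no trend, 171 with the fibroblast covariate, 1663 with replicate number as a block, and 251 to 825 without 1 array (458 and 251 without luciferase replicates 2 and 3, and 611, 480 and 298 without KIAA1718 shRNA1 replicates 1, 2 and 3). Over the 5 lists 6 genes passed, and 2 with deposited signals, 3 with no filter, 1 with the fibroblast covariate, 3 to 4 without 1 array, 4 with no trend, 5 at a pseudocount of 1, 7 at 64 and with trimmed-mean scaling, 8 with the lowest 60% left out and 9 with the block. With replicate number as a block no member's call changed; Ezh1, Zfp711, E2f1 and Akap2 (adjusted p = 0.0256) passed. Under the fibroblast covariate the 5 list genes that lost their call were nearly as large, with wider intervals. That covariate was itself lower on average with the shRNA, so its part and that of the shRNA cannot be told apart. No cause was tested. Signals near background limit the 6 dimmest members most.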
